A study of Homo sapiens with 6 samples.

Results

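The DNAJ genes encode J proteins, the co-chaperones that hand unfolded clients to HSP70 and set off its ATP hydrolysis. The members were all symbols in the count tables made of DNAJ, the class letter A, B or C and a number. This gave 43 genes of 43424: 4 of class A, 13 of class B and 26 of class C. Of these, 38 had enough counts to be tested and 5 did not (DNAJA4, DNAJB3, DNAJB7, DNAJB8 and DNAJB13). RNA was counted in 3 libraries of HepG2 cells given 10 µM tamarixetin for 24 h and in 3 libraries of control HepG2 cells, which the labels list with no treatment and no vehicle. HepG2 is a human liver cancer line, labelled wild type in both groups, and tamarixetin is an O-methylated derivative of the flavonol quercetin. The treated cells were kept in 1% serum, per the labels' protocols, while the medium of the control cells over those hours is not stated, so an effect of serum and an effect of the compound cannot be told apart where that medium differed.

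As background, class A J proteins carry the J domain, a stretch rich in glycine and phenylalanine and a zinc-binding region; class B proteins lack the zinc-binding region; class C proteins share only the J domain. HSP70 with its J proteins works in the cytosol and nucleus, in the lumen of the endoplasmic reticulum (ER), where HSPA5 (BiP) is the HSP70, and in the mitochondrial matrix, where HSPA9 is the HSP70. Members were placed from general knowledge: 17 cytosolic or nuclear, 5 in the ER lumen, 6 in the ER membrane, 5 mitochondrial and 3 on vesicles or endosomes. A further 4 are known from testis or cilia and 3 were not placed.

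The libraries held 11980585 to 16168855 counts, of which the family took 0.255% to 0.265% with tamarixetin and 0.233% to 0.239% in control. The hepatocyte markers ALB, AFP, APOA1, APOB, TTR, TF, SERPINA1, FGB and HNF4A were expressed in both groups and lower with tamarixetin (9 of these 9 markers fell past the threshold, against 21.3% of all genes; median log2 fold change -0.83), and their part in the results was not tested. Of 7 genes of other cell types, CD3E and KDR had no counts, PTPRC and CD79A were under 0.3 CPM on average in both groups, COL3A1 and PECAM1 averaged 2.94 and 1.11 CPM with tamarixetin and 2.43 and 0.932 CPM in control, and COL1A1 averaged 21.0 CPM with tamarixetin and 25.4 CPM in control. In such bulk samples, fewer cells that express a gene and less of its RNA per cell cannot be told apart.

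Changes in the tested members of the family were small and ran in both directions. Of the 38 members tested, 11 passed the threshold (28.9%), an adjusted p under 0.05 in edgeR's quasi-likelihood test; over all 13198 genes tested 43.7% passed. DNAJC10, DNAJC2, DNAJB1, DNAJB11, DNAJA2, DNAJC25 and DNAJC8 rose (7 members; 22.4% of all genes did), and DNAJC9, DNAJC12, DNAJC19 and DNAJC3 fell (4 members; 21.3% of all genes did). The largest passing changes were 1.40-fold up and 1.37-fold down, and none of the 38 tested members reached a log2 fold change of 1 in either direction, while 6.08% of all genes passed the threshold with at least that size. The median log2 fold change was -0.0015 over the 38 members, which turned to 0.0011 with no filter on low counts, and 0.00038 over all genes, and the median absolute log2 fold change was 0.12 in the family and 0.23 over all genes. Counting only genes that averaged 20 CPM or more (counts scaled to a common library size), a level set after the data were seen, 10 of 24 members passed (41.7%) and 57.3% of all genes.

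**Figure D1:**
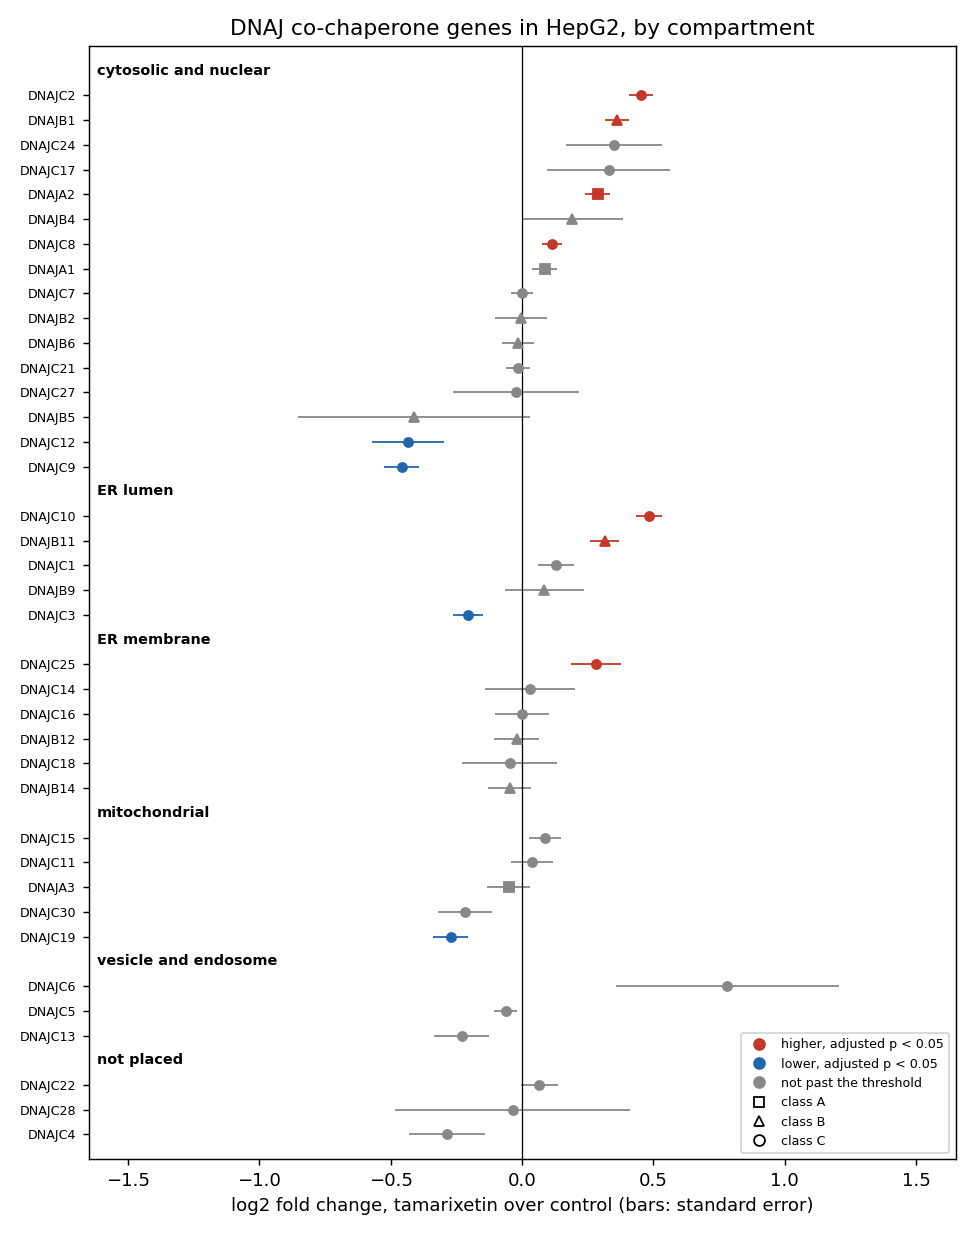
Log2 fold change, tamarixetin over control, of the 38 tested members (x axis; bars are standard errors), listed by compartment on the y axis, with the class as the symbol and the test result as the colour. DNAJC10 (0.48) and DNAJC2 (0.45) lie farthest right among the 7 that rose, DNAJC9 (-0.46) farthest left among the 4 that fell, and each compartment holds members near 0.

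Stretches upstream of annotated starts are shown for 4 members, because they hold letters of the elements bound by the heat shock factor or by factors of the unfolded protein response, and because the members with the letters did not all change. They come from the RefSeq promoter table (GRCh38.p14), which holds 250 bases before and 50 bases from each start and matched 39 of the 43 members with 51 windows (DNAJB3, DNAJC1, DNAJC22 and DNAJC24 are not in it). Each is 120 bases long and capitals mark the match.
DNAJB1: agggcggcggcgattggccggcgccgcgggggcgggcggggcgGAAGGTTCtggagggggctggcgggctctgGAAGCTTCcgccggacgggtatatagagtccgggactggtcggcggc
DNAJB6: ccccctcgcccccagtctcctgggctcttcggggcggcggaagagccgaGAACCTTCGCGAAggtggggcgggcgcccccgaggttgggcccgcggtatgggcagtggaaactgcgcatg
DNAJC10: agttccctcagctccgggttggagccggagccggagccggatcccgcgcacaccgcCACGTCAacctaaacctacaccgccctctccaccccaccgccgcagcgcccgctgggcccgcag
DNAJC25: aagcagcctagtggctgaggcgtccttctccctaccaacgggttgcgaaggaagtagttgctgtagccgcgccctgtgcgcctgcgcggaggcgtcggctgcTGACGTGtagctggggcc

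The DNAJB1 stretch (minus strand, chr19:14518398-14518517) ends next to 1 of its 3 listed starts and holds the 2-unit heat shock element (GAA, 2 bases, TTC) at 2 places. DNAJB1 rose. The DNAJB6 stretch (plus strand, chr7:157336824-157336943) holds the 3-unit form (GAA, TTC and GAA, each 2 bases apart), and DNAJB6 had a log2 fold change of -0.02 that did not pass. The stretches of DNAJC10 (plus strand, chr2:182716077-182716196) and DNAJC25 (plus strand, chr9:111631214-111631333) hold TGACGTG, the letters searched for the unfolded protein response element. In DNAJC10 these letters are read on the other strand, and bases beyond them were not part of the search. Both genes rose, but the DNAJC25 call was lost without control replicate 2 or control replicate 3. Searched on both strands in all 35116 windows of the table, the 3-unit heat shock element (also in its other order, TTC, GAA and TTC) was in 0.49%, the 2-unit form (GAANNTTC or TTCNNGAA, each 3-unit match holding both) in 13.5% and TGACGTG in 1.97%. In the family they were in 2 members (DNAJA1 and DNAJB6), 8 members (DNAJA1, DNAJA4, DNAJB1, DNAJB4, DNAJB6, DNAJB7, DNAJC6 and DNAJC15) and 2 members. Counted by window, as for the whole table, these were 2, 9 and 2 of the 51 member windows. Of the 8 members with a heat shock element match, DNAJB1 alone passed the threshold, where 43.7% of all genes tested did. DNAJA1, DNAJB4, DNAJB6, DNAJC6 and DNAJC15 did not pass, and DNAJA4 and DNAJB7 were not tested. The ER stress element (CCAAT, 9 bases, CCACG) and its second form (ATTGG, 1 base, CCACG) were in no member window, and in 0.0769% and 0.0541% of all windows. The antioxidant response element core TGACNNNGC was in 4 members (DNAJA2, DNAJB6, DNAJC10 and DNAJC11), 4 of the 51 member windows and 13.3% of all windows. In DNAJC10 it overlaps the TGACGTG match. The amino acid response element core TGATGNAA was in 1 member (DNAJA4), 1 of the 51 member windows and 3.62% of all windows. The xenobiotic response element core TNGCGTG was in 3 members (DNAJA2, DNAJB1 and DNAJC4), 4 of the 51 member windows and 5.51% of all windows. These matches describe the letters only.

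Within the cytosol and nucleus, 4 of 16 members tested rose (22.4% of all genes did) and 2 fell (21.3% of all genes did), with a median log2 fold change of 0.04. Without the nuclear members DNAJC8, DNAJC9 and DNAJC17 the median was -0.0017, and 3 of 13 rose and 1 fell. DNAJC2, the J protein of the ribosome-associated complex that meets nascent chains with HSPA14, rose 1.37-fold. It had 172, 159.7 and 169 CPM in tamarixetin libraries and 121, 121 and 123 CPM in control libraries (log2 fold change 0.45, SE 0.046, adjusted p = 8.20e-15, edgeR with Benjamini-Hochberg adjustment). The groups lay far apart relative to their spread. Its gene (chromosome 7, 103312289 to 103344767) ends over PMPCB, which lies on the other strand and had a log2 fold change of -0.10. HSPA14 had 0.29 and did not pass (adjusted p = 0.085 in edgeR).

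DNAJB1 is the stress-inducible class B partner of cytosolic HSP70 and a known target of the heat shock factor HSF1. It had 172, 170.1 and 163 CPM with tamarixetin and 133, 130.1 and 131 CPM in control, so every tamarixetin library stood above every control library (chromosome 19, 14514769 to 14560391; log2 fold change 0.36, SE 0.046, adjusted p = 6.06e-11, edgeR). DNAJA2, a class A partner of HSPA8, had 147, 139.7 and 146 CPM with tamarixetin and 114, 124 and 117 CPM in control (log2 fold change 0.29, SE 0.048, adjusted p = 2.58e-07, edgeR), again without overlap. DNAJA1, its close relative and also a heat shock gene, had 144, 139.7 and 132 CPM with tamarixetin and 127, 134 and 132 CPM in control. These ranges overlap and the test did not pass (0.09, SE 0.047, adjusted p = 0.133, edgeR), though it passed with scaling by library size alone (adjusted p = 0.029). DNAJB4, another heat shock J protein, was low, at 6.06 ± 0.111 CPM with tamarixetin and 5.29 ± 1.37 CPM in control (SD, n = 3 each), with a log2 fold change of 0.19 (SE 0.19) that came to 0.42 without control replicate 1, 0.064 without control replicate 2 and 0.11 without control replicate 3. GIPC2, which lies over the end of DNAJB4 on the same strand, averaged 37.1 CPM over the 6 libraries and fell (-0.74, SE 0.084). DNAJA4 had 0 counts in each tamarixetin library and 1 in all control libraries together. Of the 4 heat shock J proteins, 3 were thus tested and DNAJB1 alone passed, where 43.7% of all genes did.

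DNAJC8, a nuclear J protein tied to splicing, was the most abundant member, with 483, 445 and 448 CPM in tamarixetin and 432, 435 and 406 CPM in control libraries. The lowest tamarixetin library stood just above the highest control library. The rise was the smallest of those that passed (0.11, SE 0.036, adjusted p = 0.0073, edgeR), and it was lost without tamarixetin replicate 1 (adjusted p = 0.137, log2 0.075) or control replicate 3 (0.091, log2 0.079). DNAJC7, which carries TPR repeats and binds both HSP70 and HSP90, came next in level, with 208, 209 and 219 CPM with tamarixetin and 210.0, 205 and 221 CPM in control. Its log2 fold change was -0.0017 with an SE of 0.042. CNP, which overlaps the end of DNAJC7 on the other strand, averaged 166.9 CPM over the 6 libraries and fell (-0.40, SE 0.044). DNAJC21, which acts in the last steps of 60S ribosomal subunit maturation, averaged 149.6 ± 9.10 CPM with tamarixetin and 152 ± 5.55 CPM in control (SD, n = 3 each) and did not pass.

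**Figure D2:**
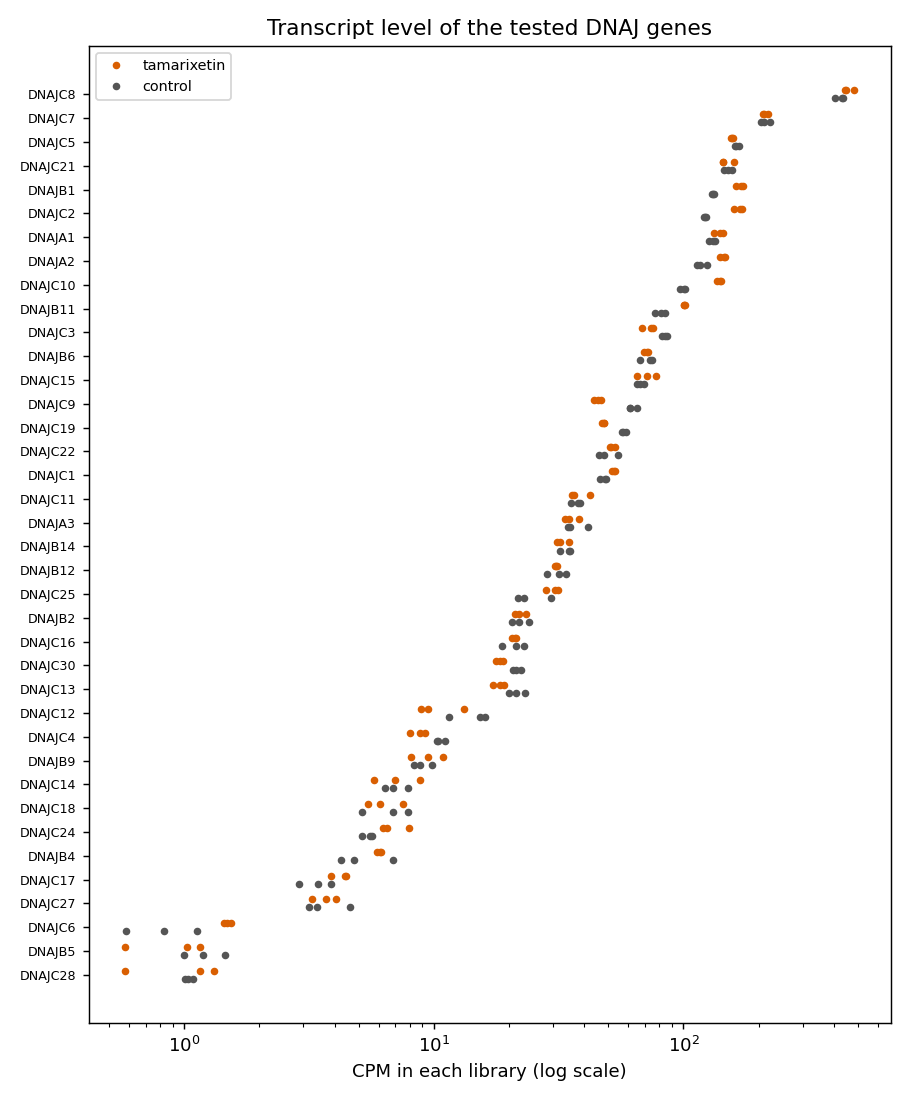
CPM in each of the 6 libraries (x axis, log scale) for the 38 tested members, ordered on the y axis by mean level, with tamarixetin above control for each gene. Levels run from under 2 CPM in DNAJC28, DNAJB5 and DNAJC6 to 406 CPM and more in DNAJC8. The groups lie apart in 17 of the 38 members, and in 50.5% of all genes tested.

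Among the tested members, the largest fall that passed was in DNAJC9, a nuclear J protein that chaperones histones H3 and H4 (chromosome 10, 73232272 to 73247255). It had 43.7, 46.8 and 45.5 CPM with tamarixetin and 60.9, 65.2 and 60.9 CPM in control (log2 fold change -0.46, SE 0.067, adjusted p = 7.58e-09, edgeR). All tamarixetin libraries lay under all control libraries. FAM149B1, which overlaps its end on the other strand, averaged 5.33 CPM over the 6 libraries and did not pass (-0.17).

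DNAJC12, a small cytosolic co-chaperone, had 9.49, 13.2 and 8.91 CPM with tamarixetin and 11.5, 16.1 and 15.4 CPM in control. The highest tamarixetin library lay above the lowest control library, and the log2 fold change was -0.43 (SE 0.14, adjusted p = 0.0066, edgeR). The call was lost without tamarixetin replicate 3 (adjusted p = 0.064), control replicate 2 (0.060) or control replicate 3 (0.052). DNAJC24, needed for diphthamide synthesis on elongation factor 2, had 0.35 (SE 0.18) and DNAJC17, a nuclear splicing factor, 0.33 (SE 0.24), and neither passed at 3 to 8 CPM. The others with a log2 fold change within 0.03 of 0 were DNAJB2, DNAJB6, DNAJC21 and DNAJC27, and DNAJB5, at about 1 CPM, had -0.41 (SE 0.44).

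Members in the ER lumen diverged. Of 5 tested, 2 rose (22.4% of all genes did) and 1 fell (21.3% of all genes did), with a median log2 fold change of 0.13, and 4 of the 5 had groups that did not overlap (50.5% of all genes). DNAJC10 (ERdj5), a disulfide reductase that opens bonds in misfolded proteins before their export for degradation, had 141, 136 and 142 CPM with tamarixetin and 102, 97.1 and 100.1 CPM in control. This was the largest passing rise in the family (chromosome 2, 182716257 to 182794464; log2 fold change 0.48, SE 0.049, adjusted p = 5.84e-15, edgeR). DNAJB11 (ERdj3), which binds unfolded clients and delivers them to HSPA5, had 101, 101 and 100.04 CPM with tamarixetin and 81.6, 84.4 and 77.0 CPM in control (0.31, SE 0.054, adjusted p = 6.26e-07, edgeR). DNAJC3 (p58IPK), another HSPA5 co-chaperone, went the other way, with 74.2, 75.3 and 68.3 CPM with tamarixetin against 84.1, 85.5 and 81.8 CPM in control (-0.20, SE 0.057, adjusted p = 0.0021, edgeR).

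DNAJB9 (ERdj4), which holds back the stress sensor IRE1 and is strongly induced by the unfolded protein response, had 10.9, 8.11 and 9.48 CPM with tamarixetin and 8.29, 8.83 and 9.78 CPM in control. The groups overlap, and the log2 fold change of 0.08 had an SE of 0.15, so a small change was not detectable at this depth. DNAJC1, which meets the ribosome at the ER, had 0.13 (SE 0.069) and did not pass, but passed with scaling by library size alone (adjusted p = 0.043). Of the 4 J proteins known as targets of the unfolded protein response (DNAJB9, DNAJB11, DNAJC3 and DNAJC10), 2 rose, 1 fell and 1 did not pass. Of all genes, 22.4% rose and 21.3% fell. In the ER membrane, 1 of 6 passed, where 43.7% of all genes did. This was DNAJC25, which had 31.4, 28.01 and 30.7 CPM with tamarixetin and 29.4, 23.0 and 21.7 CPM in control. Its groups overlap (0.28, SE 0.094, adjusted p = 0.010, edgeR), and the call was lost without control replicate 2 (adjusted p = 0.070, log2 0.23) or control replicate 3 (0.155, log2 0.18), while the log2 fold change was 0.43 without control replicate 1. DNAJB12, DNAJB14, DNAJC14, DNAJC16 and DNAJC18 had log2 fold changes between -0.048 and 0.030 and did not pass; DNAJB12 and DNAJB14 turn their J domains to the cytosol.

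None of the 5 mitochondrial members rose (22.4% of all genes did), and 1 fell (21.3% of all genes did). DNAJC19, which works at the inner membrane with the motor that pulls precursors into the matrix, had 48.0, 48.2 and 47.2 CPM with tamarixetin and 57.0, 56.9 and 59.1 CPM in control (chromosome 3, 180983709 to 180989838; log2 fold change -0.27, SE 0.067, adjusted p = 4.29e-04, edgeR). The groups were far apart. DNAJC15, the paralog of DNAJC19 at the same membrane, had 71.3, 65.3 and 77.9 CPM with tamarixetin and 65.2, 69.5 and 67.0 CPM in control, which overlap (0.09, SE 0.062). DNAJC30, which has been tied to complex I, had 18.4 ± 0.601 CPM with tamarixetin and 21.4 ± 0.799 CPM in control (SD, n = 3 each); its groups did not overlap but the test did not pass (-0.22, adjusted p = 0.080, edgeR). DNAJA3, the class A member of the matrix, had -0.05 and DNAJC11, of the outer membrane, 0.04, and neither passed. The motor gene TIMM44 rose (0.30, SE 0.073), as did the HSPA9 exchange factors GRPEL1 (0.36) and GRPEL2 (0.31).

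On vesicles and endosomes, DNAJC5 (cysteine string protein), next to DNAJC7 in level over both groups, had 159, 155 and 157 CPM with tamarixetin and 167, 162 and 163 CPM in control. Each tamarixetin library lay below each control library, but the gap was small and did not pass (-0.06, SE 0.044, adjusted p = 0.260, edgeR). DNAJC13, an endosomal member, had 19.1, 17.2 and 18.4 CPM with tamarixetin and 21.3, 23.1 and 20.1 CPM in control (-0.23, adjusted p = 0.066, edgeR); it passed without control replicate 3 (0.044) and with a filter of 5 CPM in 3 libraries (adjusted p = 0.0497). DNAJC6 (auxilin), which strips clathrin coats, had the largest log2 fold change of the tested members, 0.78, but at 24, 20 and 18 counts with tamarixetin and 12, 7 and 18 counts in control it did not pass (SE 0.43). Of the members not placed, DNAJC4 had -0.29, DNAJC22 0.07 and DNAJC28 -0.04, and none passed.

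**Figure D3:**
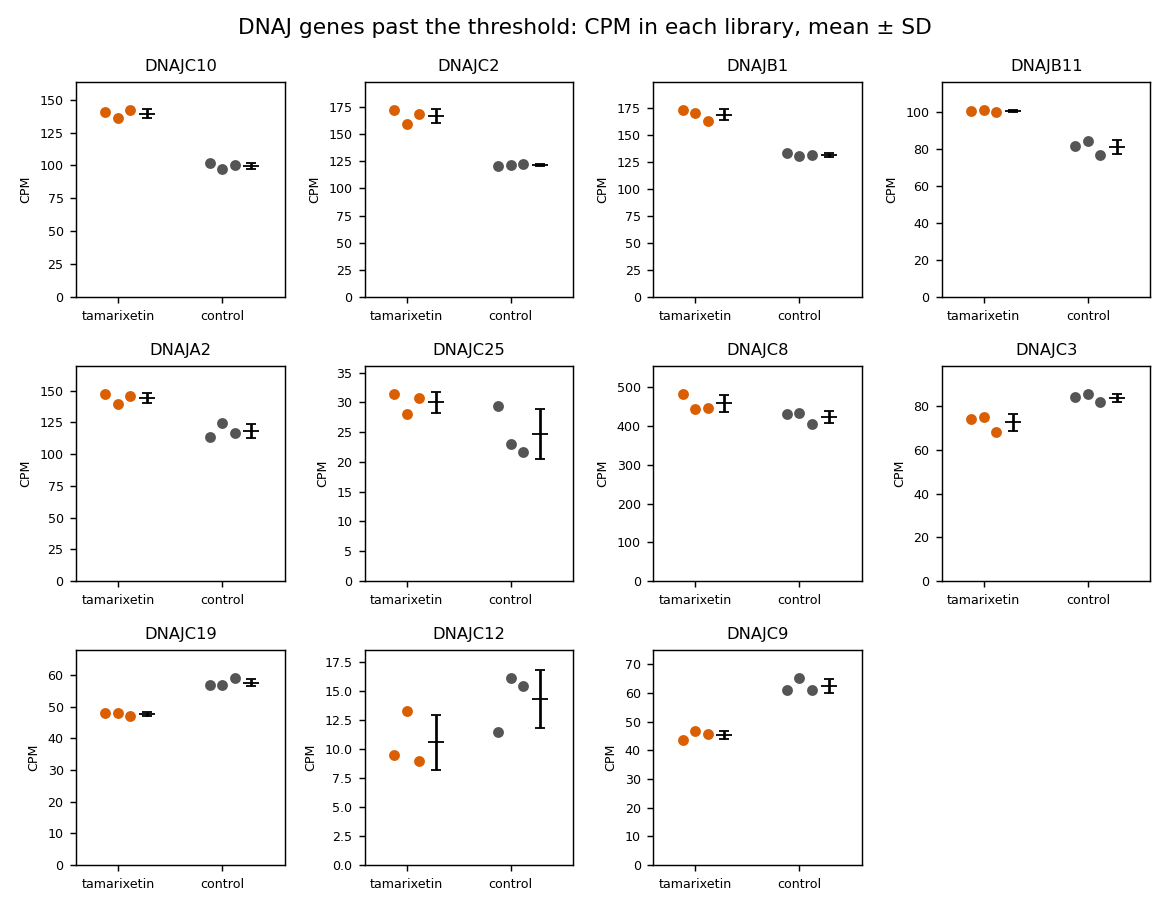
CPM (y axis from 0) in each library for the 11 members past the threshold, tamarixetin left and control right, with the mean and SD beside the points. DNAJC10 sits at 136 to 142 CPM with tamarixetin and 97.1 to 102 CPM in control, and DNAJC25 and DNAJC12 are the panels where the groups overlap.

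By class, 1 of 3 tested members of class A rose (median 0.09), 2 of 9 of class B rose (median -0.0047), and 4 of 26 of class C rose while 4 fell (median -0.0015), where 22.4% of all genes rose and 21.3% fell. With 1 library left out the medians of classes B and C turned sign, running from -0.014 to 0.044 in class B and from -0.024 to 0.063 in class C. Falls that passed were thus in class C, which also holds most of the members; the difference between the classes was not tested. In 10 members the tamarixetin libraries all lay above the control libraries (26% of all genes) and in 7 all below (24.5% of all genes), 14 of these 17 in class C. The summed CPM of all 43 members was 2561 ± 55.1 with tamarixetin and 2394 ± 25.5 in control (SD, n = 3 each). Class B made up 17.1%, 17.5% and 17.1% of the family's counts in tamarixetin libraries and 16.1%, 16.1% and 16.4% in control libraries. Class C made up 70.3% ± 0.392 with tamarixetin and 71.9% ± 0.506 in control, without overlap. The ER lumen took 14.6% ± 0.204 with tamarixetin and 13.4% ± 0.0880 in control, and the mitochondrial members 8.25% ± 0.145 with tamarixetin and 9.21% ± 0.197 in control; these groups did not overlap either. Because the library kit primes at the poly(A) tail, counts were summed over genes without dividing by transcript length. Use of molecular identifiers is not stated and some members end over other genes, so the sums compare levels of different genes only roughly.

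Of the 5 cytosolic HSP70 genes tested that had counts in both groups, 3 rose, where 22.4% of all genes did: HSPA1A by 1.05, HSPA1B by 0.80 and HSPA8 by 0.63 on the log2 scale. HSPA1L (0.44, adjusted p = 0.323, edgeR) and HSPA14 did not pass, their groups overlap, and HSPA2 was too low to be tested. HSPA6, a strictly heat-inducible HSP70, had 42, 22 and 25 counts with tamarixetin and 0 counts in every control library; it passed the filter on low counts through the tamarixetin libraries alone and is not counted here. HSPA1A and HSPA1B are nearly identical, so reads may be split between them or lost, and their single values are uncertain. Where reads were lost, the sums and ratios below that include these genes are uncertain too. All 7 listed cytosolic HSP70 genes summed to 564 ± 11.2 CPM with tamarixetin and 331 ± 13.6 CPM in control (SD, n = 3 each). The cytosolic and nuclear J transcripts per cytosolic HSP70 transcript came to 3.00, 2.78 and 2.78 in tamarixetin libraries and 4.66, 4.37 and 4.39 in control libraries. Without the nuclear members DNAJC8, DNAJC9 and DNAJC17, an alternative added after the data were seen, the ratio was 1.95 ± 0.0767 with tamarixetin and 2.99 ± 0.0936 in control.

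In the ER lumen the ratio was higher with tamarixetin. HSPA5 averaged 782 CPM with tamarixetin and 976 CPM in control (-0.32, SE 0.032), and HSPA13 averaged 16.0 CPM with tamarixetin and 12.3 CPM in control (0.38, SE 0.13). J transcripts of the ER lumen per transcript of HSPA5 and HSPA13 were 0.470, 0.468 and 0.469 in tamarixetin libraries and 0.331, 0.322 and 0.322 in control libraries. HYOU1, also listed with the ER HSP70 genes, was left out of this ratio. It averaged 135 CPM with tamarixetin and 125 CPM in control (0.11, SE 0.048, adjusted p = 0.049, edgeR). In mitochondria HSPA9 rose (217 CPM with tamarixetin, 173 CPM in control; 0.33, SE 0.042), and J transcripts per HSPA9 transcript were 0.981, 0.945 and 0.994 with tamarixetin and 1.24, 1.30 and 1.29 in control. That sum takes in all mitochondrial members, also DNAJC11 of the outer membrane (38.1 CPM with tamarixetin, 37.2 CPM in control), so it is not a ratio of matrix proteins alone. The groups did not overlap in any of the 3 compartments, and the ratios follow from the genes named above, so they are given with no test.

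**Figure D4:**
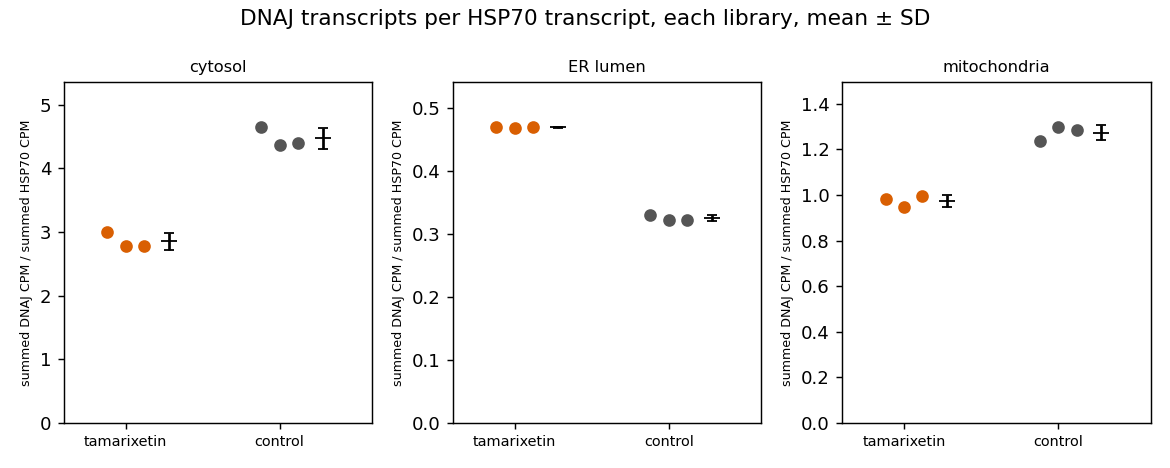
Summed CPM of the DNAJ members of a compartment divided by the summed CPM of its HSP70 genes (y axis from 0) in each library, tamarixetin left and control right, with mean and SD. For the ER lumen the HSP70 genes are HSPA5 and HSPA13, without HYOU1. The ratio is lower with tamarixetin in the cytosol (2.85, against 4.47 in control) and in mitochondria (0.974, against 1.27 in control), and higher in the ER lumen (0.469, against 0.325 in control).

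Genes that act beside the J proteins were counted from lists. Of 17 nucleotide exchange factors and other HSP70 cofactors, 8 rose and 2 fell (median 0.08; 22.4% of all genes rose and 21.3% fell), with HSPH1 (0.91), BAG3 (0.70), GRPEL1 and BAG2 (0.38) as the rises of smallest p and BAG4 (-0.31) and ST13 (-0.16) as the falls. Of 9 dedicated partners of single J proteins tested, 6 rose and 0 fell (median 0.29), against the same shares of all genes. PA2G4, the nucleolar partner of ribosome maturation, rose by 0.32, and of the diphthamide genes DPH2 rose by 0.67 and DPH7 by 0.47, while DPH1, under 3 CPM, had the list's largest change, -0.74 (SE 0.39, adjusted p = 0.121, edgeR), with groups that did not overlap. Of 3 J proteins with other names, GAK, the widely expressed auxilin, rose by 0.23. SEC63, the J protein of the ER translocon, fell (148 CPM with tamarixetin, 193 CPM in control; -0.38, SE 0.045), and HSCB, of iron-sulfur cluster assembly, had -0.32 and did not pass.

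Among the untested members, DNAJB13, known from sperm and cilia, had 1, 1 and 1 counts with tamarixetin and 7, 8 and 17 counts in control. Its groups did not overlap, and in the fit with no filter on low counts its log2 fold change was -3.21 (SE 0.93, adjusted p = 0.0032, edgeR). From 3 counts with tamarixetin and 32 in control, the ratio per library total was 0.0981 (exact 95% interval 0.0192 to 0.314, counting error only). DNAJB3 and DNAJB7 had at most 2 counts in a library, and DNAJB8 had none. For 16 of the 43 members, 4 of them past the threshold (DNAJB11, DNAJC2, DNAJC9 and DNAJC25), GENCODE 29 places another gene over the last 1000 bases, and no source used here gives the strand setting of the counting. At DNAJB11 and DNAJC25 an overlapping gene lies on the same strand (AC068631.2 and DNAJC25-GNG10), where no strand setting separates the reads. The same holds for DNAJB4 (GIPC2), DNAJC14 (AC023055.1) and DNAJC6 (RNU2-15P), which did not pass. On the other strand, GCHFR at DNAJC17 fell (-0.57) and ORMDL2 at DNAJC14 rose (0.41), while THAP3 at DNAJC11 and XPNPEP3 at DNAJB7 did not pass. DNAJC25-GNG10 had 0 counts in every library.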

How the data were processed

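Raw counts per gene symbol were deposited by the authors, who used fastp 0.23.1, STAR 2.7.10b and featureCounts 2.0.6 on GRCh38, per the submitters' processing notes. The kit was Lexogen QuantSeq 3′ forward, per the labels' protocols. No source used here gives the annotation release, the strand setting or any use of molecular identifiers. Genes passing filterByExpr were tested, tamarixetin over control, with edgeR 4.0.16 (R 4.3.3): TMM scaling, a quasi-likelihood F test on group alone and Benjamini-Hochberg adjustment over 13198 genes (threshold 0.05). An SE equals the log2 fold change over the root of F, and CPM uses TMM-scaled library sizes. The test was first run on simulated data, with changes put into genes drawn from all those tested. It recovered 54% of 1.25-fold, 74% of 1.5-fold, 92% of 2-fold and 100% of 3-fold changes, with 2 false calls. Small changes among members that did not pass may thus have been missed. No library was a copy of another (chi-square per gene 2.33 to 3.40 within groups). The samples are called biological replicates in the labels, and p-values measure the spread between them.

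Members, lists and compartments were chosen with earlier results of these data known. A few listed genes are not reported here and were left out of their lists' counts. Values in every library were given for members past the threshold with an absolute log2 fold change of at least 0.3 and for the 3 most abundant; other members were given by list, or, as for DNAJC6, DNAJC13 and DNAJB13, chosen after their values were seen. Gene positions are from the RefSeq table of GRCh38.p14. The 2-unit heat shock element was added after the promoters were read. Alternatives were scaling by DESeq2 size factors or library size, other filters, DESeq2 1.42.0, limma-voom (limma 3.58.1), a replicate block, leaving out each library, an adjusted p of 0.01 and a minimum fold of 1.2.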

Additional observations from a re-analysis of the deposited data

How the results depend on the processing

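The calls of DNAJC10, DNAJC2, DNAJB1 and DNAJC9 were kept under all 15 alternatives. DESeq2, limma-voom and DESeq2 size factors changed no call or direction among the 38 members. With a minimum fold of 1.2, 2560 genes, 3 members higher and 1 lower passed; an adjusted p of 0.01 lost DNAJC25 alone. Without a filter on low counts the class A median was 0.020. Same-numbered samples did not deviate together over all genes tested (correlations of -0.036 to 0.00043). Counting noise can hide a shared deviation there, so this does not exclude pairing. With the replicate block 11 members passed, as without it, and no call changed. DNAJC16 (0.0017) and DNAJC7 (0.00027) turned sign with the block, as they did with no filter (0.0013 and 0.00088). Scaling by library size alone, which moved the median of all genes to 0.035, turned the sign of DNAJB12 (0.015), DNAJB2 (0.030), DNAJB6 (0.020), DNAJC16 (0.034), DNAJC21 (0.020), DNAJC27 (0.010) and DNAJC7 (0.033), none of which passed. No filter on low counts also turned the medians of the family (0.0011), class B (0.043) and class C (0.0011), and library size alone those of the family (0.034), class B (0.030), class C (0.034) and the ER membrane (0.024); a filter of 5 CPM turned class B (0.031), and the replicate block the family and class C (0.00099). Leaving out 1 library gave family medians of -0.0087 to 0.058 and mitochondrial medians of -0.11 to 0.024 (above 0 without control replicate 2). Over the same leave-outs the log2 fold changes that turned sign, all of members that did not pass, ran from -0.11 to 0.024 in DNAJA3, -0.094 to 0.044 in DNAJB12, -0.059 to 0.054 in DNAJB2, -0.069 to 0.015 in DNAJB6, -0.034 to 0.19 in DNAJB9, -0.045 to 0.088 in DNAJC11, -0.13 to 0.16 in DNAJC14, -0.075 to 0.063 in DNAJC16, -0.22 to 0.10 in DNAJC18, -0.068 to 0.012 in DNAJC21, -0.12 to 0.16 in DNAJC27, -0.24 to 0.25 in DNAJC28 and -0.031 to 0.027 in DNAJC7. Without turning sign, the same leave-outs moved DNAJB4 (0.064 to 0.42), DNAJB5 (-0.58 to -0.17), DNAJB14 (-0.096 to -0.015), DNAJC8 (0.075 to 0.14), DNAJC15 (0.026 to 0.15), DNAJC17 (0.21 to 0.44), DNAJC22 (0.0050 to 0.14), DNAJC24 (0.23 to 0.42), DNAJC25 (0.18 to 0.43) and the median of the cytosol and nucleus (0.035 to 0.092) by over 1.5 times; the ER membrane median ran from -0.024 to 0.023. The cause was not tested. Depth limits the members under about 10 CPM, whose SE was 0.14 or more.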
